A study of Mus musculus with 21 samples.

Results

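Genes that build ribosomes, together with Myc, were followed across mouse CD4 T cells that had been activated with or without TGFB. The set was a list of 40 gene symbols: Myc, subunits and helpers of RNA polymerase I, and nucleolar factors that process rRNA and assemble the ribosomal subunits. A gene was kept where the array annotation gave it a transcript cluster (the probes summed for a transcript) of its own. That held for 31 of the 40, out of 14860 such genes and 23332 clusters on the array, and 0 of the 31 had more than 1. Fbl, Npm1, Dkc1, Wdr43, Wdr75, Polr1c, Rrn3, Ddx18 and Noc2l lacked such a cluster in this annotation and were left out.

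The 21 exon arrays came from cultured spleen cells of Marilyn mice, whose CD4 T cells carry a transgenic receptor for the male antigen HY. All 21 samples were activated, so the untreated cells are activated controls and not resting cells. In the Marilyn.Foxp3hCD2 strain, human CD2 on the cell surface reports Foxp3, the transcription factor of regulatory T cells. Untreated reporter cells (labelled CD4+CD2, n = 5 arrays) were set beside TGFB-induced cells sorted as CD4+hCD2+ (n = 5) and as CD4+hCD2- (n = 5). Marilyn.Foxp3-/- cells, labelled CD4+CD2, were either untreated (n = 3) or TGFB-experienced (n = 3). Neither ages, doses and culture times nor the deleted part of Foxp3 are stated in the labels. Replicates are labelled biological, but no animal or culture is named, so a p-value here covers the spread among these arrays and that spread may be technical. The labels also give a study number, which is 1 for reporter replicates 1 to 3 and 2 for every knockout array and for reporter replicates 4 and 5.

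The cluster that Foxp3 shares with Flicr, a non-coding RNA gene beside it, read 5.95 to 6.54 (log2) in untreated, 9.23 to 11.68 in hCD2-positive and 6.35 to 7.08 in hCD2-negative cells. It read 6.8 to 7.17 in untreated and 8.26 to 8.9 in TGFB-treated knockout cells, and whether its probes lie in the deleted part was not tested. The 10 measured T cell identity genes averaged 9.3 to 10.88 on the 21 arrays. The 8 measured B cell genes averaged 5.22 to 6.15, the 9 measured dendritic cell and macrophage genes 5.24 to 6.21, and the NK cell (4), granulocyte (6) and erythroid (3) genes at most 4.81, 6.22 and 6.02, all below the medians of the arrays. An array's lower quartile was 4.93 to 5.02 in reporter cells but 5.61 to 5.68 in knockout cells. Whether both genotypes were normalized together is not stated, and TGFB effects were tested within a genotype. The 2 measured CD8 genes averaged 7.54 to 8.29 in untreated, 7.51 to 8.31 in hCD2-positive and 8.23 to 9.71 in hCD2-negative reporter cells, and 8.25 to 8.75 and 9.21 to 9.79 in untreated and TGFB-treated knockout cells. Their part in the results below was not tested.

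A ribosome starts in the nucleolus, where RNA polymerase I copies the rRNA genes into a long precursor. Small nucleolar ribonucleoproteins modify that RNA, a large processome carves out and folds the small subunit, and a separate line of factors matures the large subunit. Myc, a transcription factor that binds DNA as a dimer with Max, is a textbook activator of these genes, and activated T cells raise it when they leave rest and grow.

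The Myc-Max dimer is known to prefer the E-box CACGTG, which reads the same on both strands, so the promoters of the set were searched for these letters and, on both strands, for the variant CACGCG, which reads CGCGTG on the other strand. The motifs cannot start at the same base of a strand. RefSeq windows on GRCm38.p6 that run from 250 bases before to 50 bases after a transcript start were given for 27 of the 31 genes (Myc, Bop1, Rrp12 and Tcof1 had none there). CACGTG lay in a window of 5 of the 27 genes (18.5%), Imp4, Mybbp1a, Nop2, Pes1 and Utp20, against 10.1% of 11894 array genes with a window. CACGCG lay in a window of 8 of the 27 (29.6%), against 16% of the array genes. A match is a description of the letters and not a binding site. Windows of 3 genes are shown because each holds CACGTG, which is in capitals, and because their values below run from Pes1, the smallest difference of the set in hCD2-positive cells, to Mybbp1a, among the larger ones.
Nop2: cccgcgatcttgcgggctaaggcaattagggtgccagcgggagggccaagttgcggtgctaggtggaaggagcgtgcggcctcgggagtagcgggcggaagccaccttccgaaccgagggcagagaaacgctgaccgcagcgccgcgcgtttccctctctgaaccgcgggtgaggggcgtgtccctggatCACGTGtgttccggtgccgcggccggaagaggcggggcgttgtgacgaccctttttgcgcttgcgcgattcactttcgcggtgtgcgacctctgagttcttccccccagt
Mybbp1a: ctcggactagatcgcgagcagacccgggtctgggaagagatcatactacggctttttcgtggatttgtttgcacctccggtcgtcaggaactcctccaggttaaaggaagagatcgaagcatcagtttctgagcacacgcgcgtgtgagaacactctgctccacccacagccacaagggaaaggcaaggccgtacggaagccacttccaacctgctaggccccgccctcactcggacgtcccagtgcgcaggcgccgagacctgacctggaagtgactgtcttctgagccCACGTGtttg
Pes1: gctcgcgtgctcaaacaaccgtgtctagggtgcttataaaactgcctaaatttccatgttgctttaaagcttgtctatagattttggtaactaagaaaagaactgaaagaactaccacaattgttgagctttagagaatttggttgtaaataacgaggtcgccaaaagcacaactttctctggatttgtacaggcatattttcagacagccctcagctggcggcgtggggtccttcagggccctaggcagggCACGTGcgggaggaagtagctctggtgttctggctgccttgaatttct
The Nop2 window is chr6:125131633-125131932, the Mybbp1a window chr11:72441077-72441376 and the Pes1 window chr11:3963725-3964024, all on the plus strand. CACGTG begins 60 bases before the Nop2 start, and in Mybbp1a and Pes1 it begins past the start, within the transcribed part of the window.

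In hCD2-positive TGFB-treated cells the ribosome biogenesis genes were lower than in untreated cells. Of the 31 genes, 10 fell at an adjusted p under 0.05 (limma, Benjamini-Hochberg over 14860 genes), 0 rose, and each of the 31 differences was negative. Those 10 are 32.3% of the set, while 9.66% of all genes were called lower. The median log2 fold change was -0.69 in the set and -0.07 over all genes tested. All genes include dim ones. The medians of the reporter arrays were 6.05 to 6.48, while the set's untreated means ran from 6.79 (Wdr12) to 12.01 (Ncl). The part of a gene's level in this contrast with all genes, here and below, was not tested. The hCD2-positive count without the dimmest genes is given at the end. The called genes were Myc, Nop56 and Nop58 of the methylation guide particles, nucleolin (Ncl), Nolc1, Rrp12, Nob1, Nop2, Nop16 and Rrp1b.

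In hCD2-negative TGFB-treated cells 14 of the 31 genes fell and 0 rose. They are 45.2% of the set, against 16.9% of all genes called lower, and again each of the 31 differences was negative. The median log2 fold change was -0.58 in the set and -0.09 over all genes. The called genes were Myc, Nop56, Nop58, Nhp2, Ncl, Mybbp1a, Nop14, Nob1, Nop2, Nop16, Wdr12, Rrp1b, Ddx21 and Nip7. Both fractions were set against the same 5 untreated arrays, so the comparisons are not independent of each other. On whole-cell RNA, fewer cells that transcribe a gene and less of its RNA per cell cannot be told apart.

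**Figure D1:**
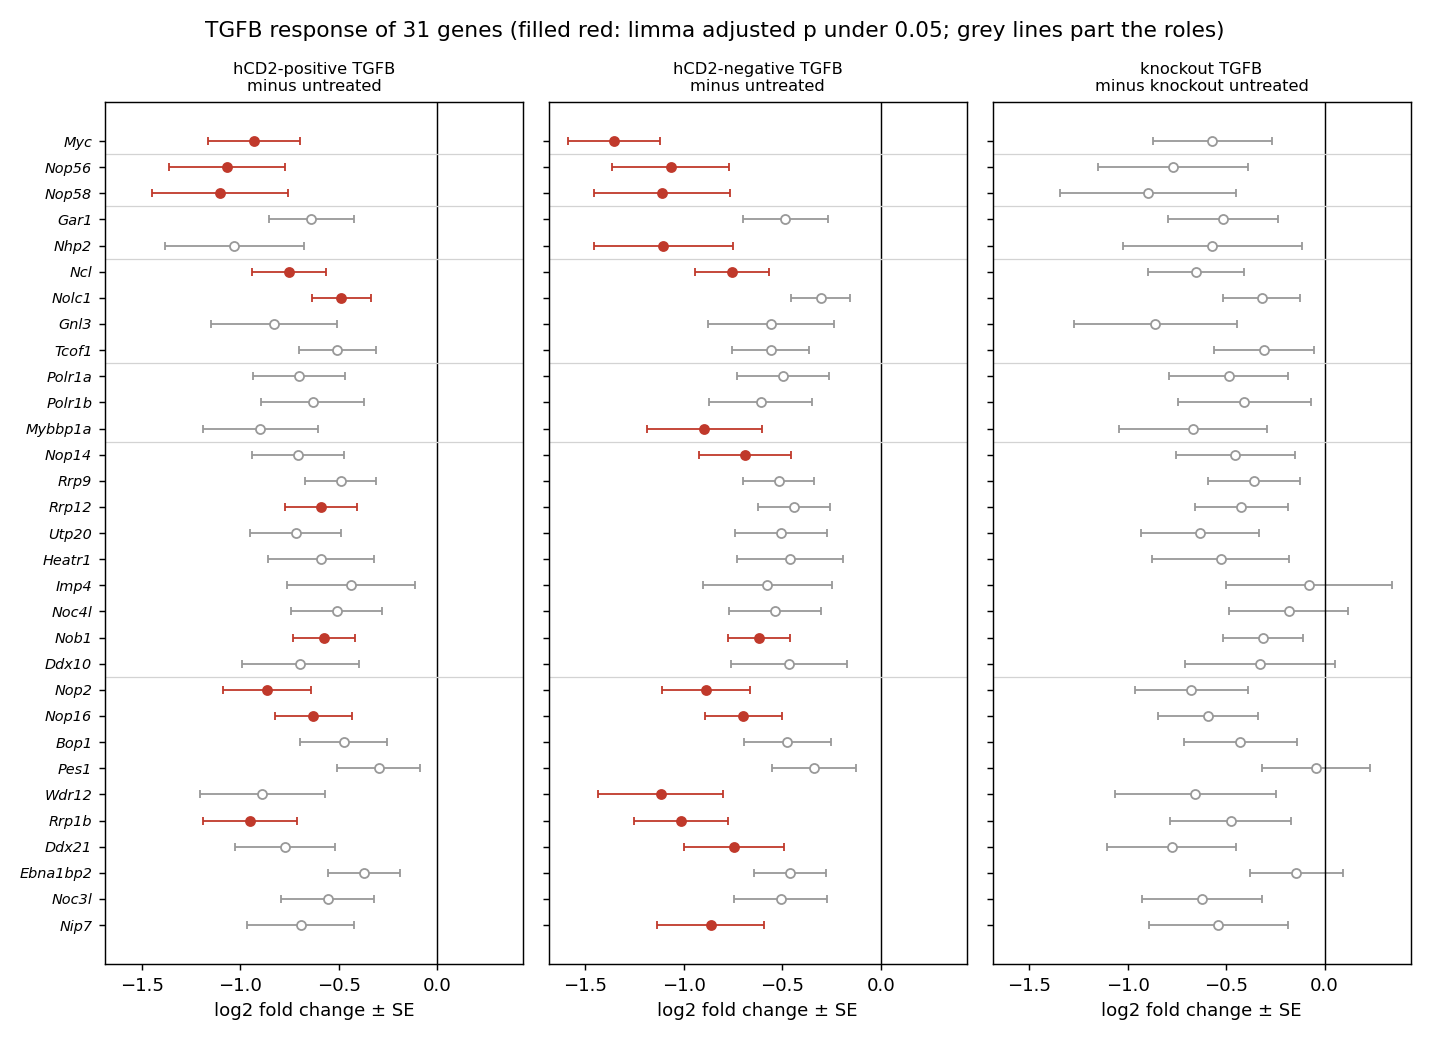
Log2 fold changes (x axis, ± SE) of the 31 genes in role order (y axis) for both reporter fractions and for knockout cells, with filled red points for genes called by limma. Every point lies left of 0, and filled points number 10, 14 and 0 in the 3 panels.

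The size of these differences moved with the scaling of the arrays. Quantile normalization of all 21 arrays, which gives each array the same distribution, moved the median of all genes up by 0.10 in hCD2-positive and by 0.14 in hCD2-negative cells against untreated cells. Relative to the median of all genes, the set's median was -0.63 on the deposited values and -0.39 after quantile normalization in hCD2-positive cells. In hCD2-negative cells it was -0.48 and -0.17. Quantile normalization left 11 genes called lower in hCD2-positive cells, with a background of 9.36% of all genes, and 6 of them were among the 10 above. In hCD2-negative cells it left 6 called lower, with a background of 11.6%, and those 6 were all among the 14 above: Myc, Nop56, Nop58, Nop2, Wdr12 and Rrp1b. The sign was positive for 1 gene in hCD2-positive and for 6 genes in hCD2-negative cells after quantile normalization, and 0 of those passed the test. Centring each array on its median gave 7 and 10 lower calls, against 7.71% and 12.5% of all genes. Among all calls in the genome-wide test, 83.2% were lower in hCD2-positive cells on the deposited values and 52.7% after quantile normalization, and in hCD2-negative cells 89.2% and 50.7%.

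**Figure D2:**
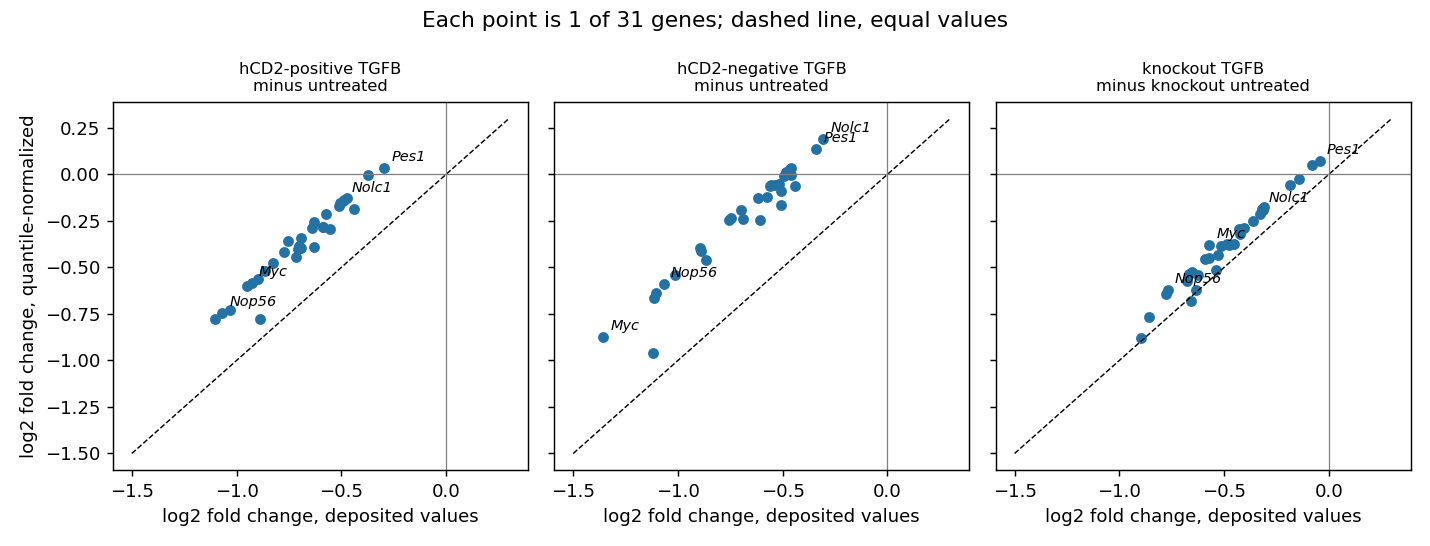
Log2 fold changes of the 31 genes on the deposited values (x axis) and after quantile normalization (y axis), 1 panel per TGFB comparison, with equality as the dashed line. Most points lie above the line, by more for hCD2-negative than for knockout cells, and the points above 0 on the y axis number 1, 6 and 2.

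Some arrays carried more of the shift than others. Each array was summarised by the median, over the 31 genes, of its deviation from the untreated mean of its genotype. Untreated replicates 1 to 5 stood at 0.18, -0.19, 0.16, 0.21 and -0.30. The hCD2-positive replicates stood at -0.36, -0.44, -1.41, -0.63 and -0.33, and the hCD2-negative replicates at -0.87, -0.28, -0.98, -0.91 and -0.32. All 10 TGFB-treated reporter arrays stood below 0, although hCD2-negative replicate 2 stood above untreated replicate 5. The 4 lowest were hCD2-positive replicate 3 and hCD2-negative replicates 1, 3 and 4, whose values also had the narrowest spread, with interquartile ranges of 2.01, 2.33, 2.23 and 2.47 against 2.7 to 3.14 on the other reporter arrays. Without these 4 arrays, 5 genes were called lower in hCD2-positive cells (Nop56, Nop58, Ncl, Nop2 and Rrp1b, set median -0.47), against 7.47% of all genes in the same fit. Only Myc was called in hCD2-negative cells without them (set median -0.26, against 4.81% of all genes called), where 2 arrays of the group were left. The T cell identity genes, which are outside the set, were lowest on 3 of these 4 arrays. They averaged 9.3 on hCD2-positive replicate 3 and 9.62, 9.69 and 10.22 on hCD2-negative replicates 1, 3 and 4, against 10.14 to 10.6 on the other reporter arrays. The part of this in the results was not tested.

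**Figure D3:**
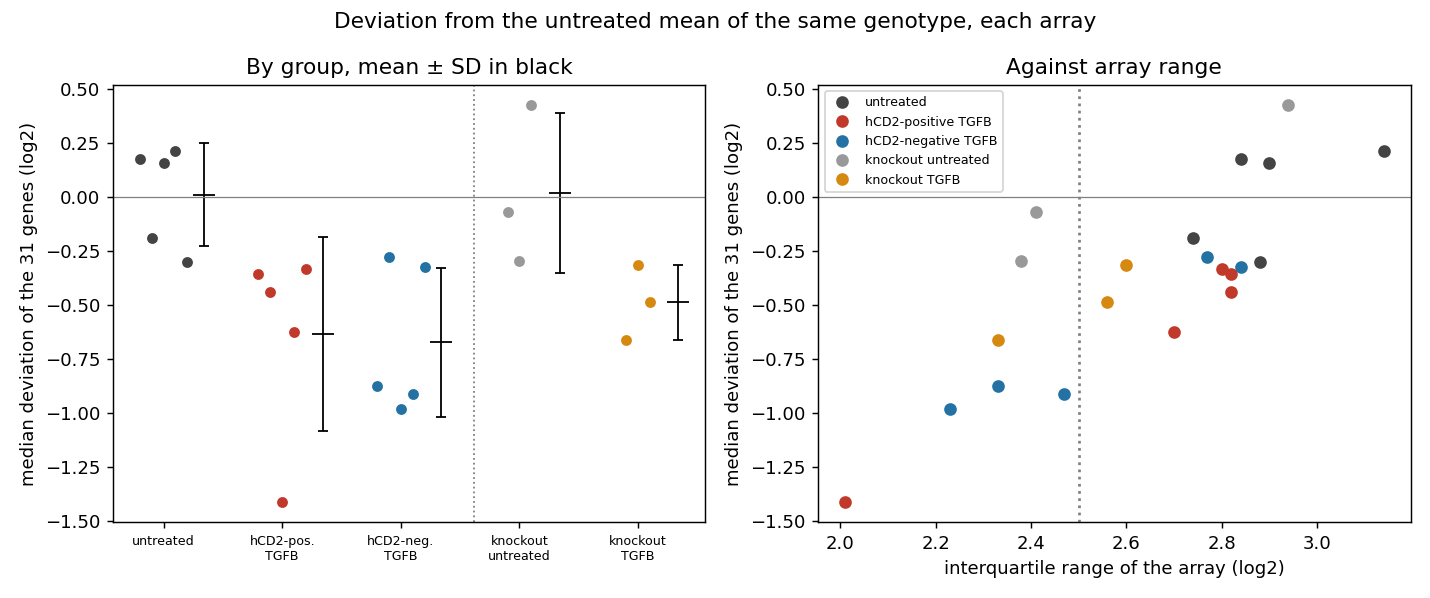
Median deviation of the 31 genes from the untreated mean of the same genotype (y axis, log2), by group on the left (points, arrays; black, mean ± SD) and against the interquartile range of the array on the right (x axis, log2; the dotted line marks 2.5). The TGFB-treated reporter arrays run from -1.41 to -0.28, and the lowest 4 of them lie left of the dotted line.

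Myc itself read 10.5, 9.63, 10.43, 10.89 and 10.65 on the untreated reporter arrays. In hCD2-positive cells it read 9.71, 9.29, 8.54, 9.81 and 10.11, and in hCD2-negative cells 8.86, 9, 8.56, 9.27 and 9.63. Untreated replicate 2 was the low control, and it alone kept the groups from separating in both comparisons. Myc was 1.90-fold lower in hCD2-positive cells (log2 -0.93 ± 0.23 SE, adjusted p = 0.0133) and 2.56-fold lower in hCD2-negative cells (log2 -1.36 ± 0.23, adjusted p = 0.000532). After quantile normalization the log2 differences were -0.58 and -0.87, still called. The call held with each single array left out, in both fractions. Without the 4 narrow arrays Myc was no longer called in hCD2-positive cells (log2 -0.74, adjusted p = 0.0511), and over the 25 alternatives this p ran from 0.00144 to 0.337.

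The box C/D proteins Nop56 and Nop58, which hold the guide RNAs that direct methylation of rRNA, had among the lowest fold changes of the set. Nop56 read 10.55, 10.02, 10.5, 10.47 and 10.33 in untreated cells, 9.64, 9.2, 7.88, 9.77 and 10.04 in hCD2-positive cells and 8.79, 9.78, 8.77, 9.16 and 10.03 in hCD2-negative cells. Replicate 5 of each TGFB fraction just reached the lowest control, and the other TGFB arrays lay below all 5. Nop56 fell by 1.07 on the log2 scale in each fraction (SE 0.29, adjusted p = 0.0238 and 0.0168), or 2.10-fold. Nop58 read 9.42, 8.99, 9.72, 8.32 and 7.95 in untreated cells against 8.71, 8.62, 6.9, 6.88 and 7.78 in hCD2-positive and 8.2, 8.8, 7.7, 6.42 and 7.72 in hCD2-negative cells. The study 2 controls, replicates 4 and 5, lay below hCD2-positive replicates 1 and 2 of study 1, so that the groups overlapped across studies. In the fit, which carries a study term, Nop58 fell by 1.10 and 1.11 (SE 0.35, adjusted p = 0.0461 and 0.0316).

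The box H/ACA proteins Gar1 and Nhp2 belong to the guide particles of pseudouridylation, the other common rRNA modification. Nhp2 fell in hCD2-negative cells (log2 -1.10 ± 0.35, adjusted p = 0.0362), and in hCD2-positive cells its difference was -1.03 (adjusted p = 0.068). Gar1 did not pass in either fraction, at -0.64 and -0.48. The Nhp2 call in hCD2-negative cells did not hold after quantile normalization (log2 -0.64), where the hCD2-positive difference passed instead (-0.73).

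Nucleolin, the abundant RNA-binding protein of the nucleolus, read 12.35, 12.11, 12.24, 11.57 and 11.78 in untreated cells. It read 11.75, 11.67, 10.85, 10.63 and 11.38 in hCD2-positive and 11.44, 11.68, 11.21, 10.61 and 11.32 in hCD2-negative cells. Within study 1 and within study 2, each TGFB array lay below each control of the same study, while across studies the groups overlapped. Ncl fell by 0.75 (SE 0.19, adjusted p = 0.0126) and 0.76 (SE 0.19, adjusted p = 0.00877), and both calls held with each single array left out. After quantile normalization the differences were -0.36 and -0.24, and the hCD2-negative call was lost. Among the other scaffold genes, Nolc1, a chaperone of the guide particles, fell in hCD2-positive cells (log2 -0.49 ± 0.15, adjusted p = 0.0436), a call lost after quantile normalization (-0.14) and when any of 7 single arrays was left out. Gnl3 (nucleostemin, a nucleolar GTPase) and Tcof1 (treacle, which aids rRNA gene transcription) did not pass, with differences from -0.83 to -0.51.

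The RNA polymerase I genes showed 0 calls of 3 in hCD2-positive and 1 of 3 in hCD2-negative cells, where 9.66% and 16.9% of all genes were called lower. Polr1a, the largest subunit, differed by -0.70 (adjusted p = 0.061) and -0.50 (adjusted p = 0.146), and Polr1b, a subunit of the catalytic core, by -0.63 and -0.61. Mybbp1a, a nucleolar regulator of rRNA gene transcription whose promoter is shown above, fell in hCD2-negative cells (log2 -0.90 ± 0.29, adjusted p = 0.0392) and differed by -0.90 in hCD2-positive cells (adjusted p = 0.0539). Its untreated arrays read 9.33, 8.93, 9.31, 9.34 and 8.44, and its hCD2-negative arrays 7.9, 8.74, 7.67, 7.97 and 8.59. Untreated replicate 5 lay within the TGFB range, and the call was lost when any of 7 single arrays was left out. After quantile normalization the Mybbp1a call moved to hCD2-positive cells (-0.56), with -0.40 in hCD2-negative cells. Polr1a was then called in hCD2-positive cells too (-0.38, adjusted p = 0.033). That made 2 of 3 in hCD2-positive cells, against 9.36% of all genes, and 0 of 3 in hCD2-negative cells, against 11.6%.

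Of 9 measured factors of the small subunit, 2 (22.2%) fell in each fraction, against 9.66% of all genes in hCD2-positive and 16.9% in hCD2-negative cells. Nob1, the nuclease of the last cleavage of the small-subunit rRNA, fell by 0.57 (SE 0.16, adjusted p = 0.0219) and by 0.62 (SE 0.16, adjusted p = 0.00981). Both Nob1 calls were lost after quantile normalization, with differences of -0.21 and -0.13. Rrp12, which serves subunit export, fell in hCD2-positive cells (log2 -0.59 ± 0.18, adjusted p = 0.0442), and Nop14, a processome protein, fell in hCD2-negative cells (log2 -0.69 ± 0.23, adjusted p = 0.0476). Both of these calls were lost after quantile normalization (-0.28 and -0.24) and when any of 7 single arrays was left out. After quantile normalization Nop14 passed in hCD2-positive cells instead (-0.40). The other processome genes Utp20, Heatr1, Imp4, Noc4l and Rrp9, and the helicase Ddx10, did not pass in either fraction, with differences from -0.72 to -0.44.

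Of 10 measured factors of the large subunit, 3 (30.0%) fell in hCD2-positive and 6 (60.0%) in hCD2-negative cells, against 9.66% and 16.9% of all genes. Their differences ran from -0.95 to -0.30 and from -1.12 to -0.34. Nop2, an rRNA methyltransferase whose promoter is shown above, read 8.52, 8.06, 8.29, 8.92 and 8.07 in untreated cells. It read 7.47, 7.61, 6.71, 7.76 and 8 in hCD2-positive and 7.1, 7.76, 6.9, 7.61 and 8.05 in hCD2-negative cells. Every TGFB-treated reporter array lay below every untreated one, replicate 5 of each fraction only narrowly. Nop2 fell by 0.86 (SE 0.22, adjusted p = 0.0157) and by 0.89 (SE 0.22, adjusted p = 0.00947), and both calls held after quantile normalization, at -0.52 and -0.41.

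Rrp1b, a nucleolar factor of the large subunit, separated in the same way. It read 8.56, 7.94, 8.73, 8.45 and 8.51 in untreated cells against 7.76, 7.68, 6.86, 7.24 and 7.9 in hCD2-positive and 7.29, 7.8, 7.01, 7.18 and 7.84 in hCD2-negative cells. Rrp1b fell by 0.95 (SE 0.24, adjusted p = 0.0132) and 1.01 (SE 0.24, adjusted p = 0.00623). These calls held with each single array left out and after quantile normalization (-0.60 and -0.54). Genes with every TGFB array below every untreated array were about as frequent in the set as over all genes, with 2 of 31 (Nop2 and Rrp1b) against 6.46% of all genes in hCD2-positive cells. In hCD2-negative cells there were 3 of 31 (with Wdr12), against 9.04%.

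Pes1, Bop1 and Wdr12 form a complex that is needed for large-subunit rRNA processing, and their differences ran from small to large. Wdr12 read 6.47, 7.19, 6.47, 7 and 6.81 in untreated and 5.29, 6.01, 5.34, 5.31 and 6.4 in hCD2-negative cells, which do not overlap. It fell by 1.12 there (SE 0.32, adjusted p = 0.0193), and in hCD2-positive cells the difference was -0.89 (adjusted p = 0.0807). Bop1 differed by -0.47 and -0.48, and neither difference passed. Pes1 had the smallest difference of the 31 genes in hCD2-positive cells. It read 8.23, 7.68, 8.47, 7.7 and 7.5 in untreated cells, 7.91, 7.95, 6.96, 7.6 and 7.68 in hCD2-positive and 7.01, 8.04, 7.6, 7.45 and 7.78 in hCD2-negative cells. The groups overlapped widely, with log2 differences of -0.30 (95% interval -0.74 to 0.15) and -0.34 (-0.79 to 0.11), and quantile normalization turned both to positive values (0.03 and 0.14).

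Within each fraction, the remaining large-subunit calls were smaller than those above. Nop16 fell by 0.63 (SE 0.20, adjusted p = 0.0452) and 0.70 (SE 0.20, adjusted p = 0.0186), and in hCD2-negative cells Ddx21, a helicase that acts on rRNA and guide particles, fell by 0.75 and Nip7 by 0.86 (adjusted p = 0.0475 and 0.0338). These calls on Nop16, Ddx21 and Nip7 were lost after quantile normalization, where Ddx21 passed in hCD2-positive cells instead (-0.42). Ebna1bp2 and Noc3l did not pass, with differences from -0.56 to -0.37. Grouped by promoter, the 5 genes with CACGTG had a median log2 fold change of -0.72 in hCD2-positive and -0.58 in hCD2-negative cells, and the 22 genes with a window but without it -0.69 and -0.61.

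**Figure D4:**
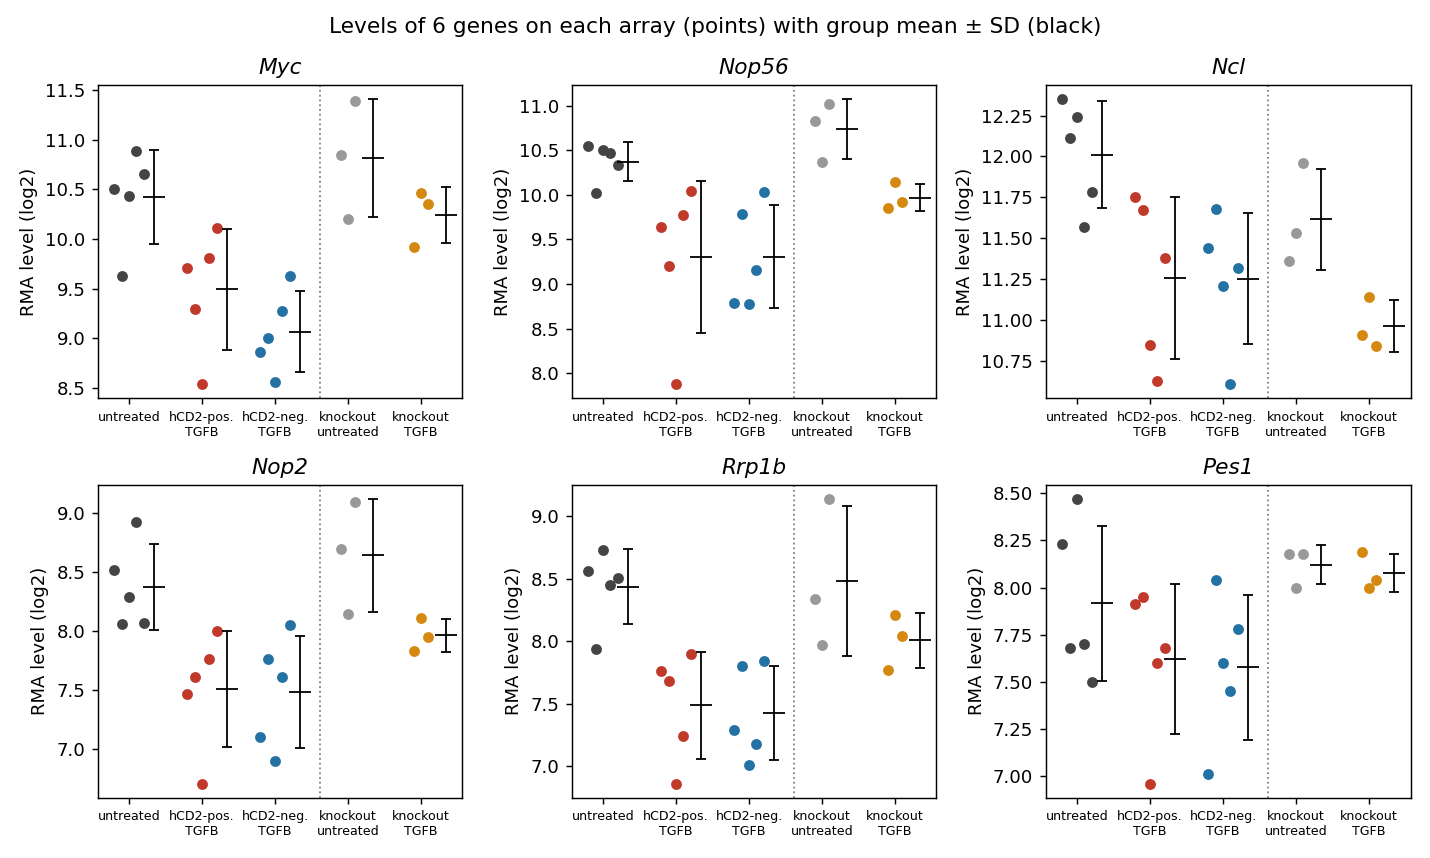
Levels of Myc, Nop56, Ncl, Nop2, Rrp1b and Pes1 on each array (y axis, RMA log2; points, arrays in replicate order; black, mean ± SD) in the 5 groups (x axis), with the genotypes parted by a dotted line. Nop2 and Rrp1b show no overlap between untreated and TGFB-treated reporter arrays, and Pes1 overlaps in all groups.

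Between the TGFB fractions the set showed 0 calls in either direction, 0 genes at an unadjusted p under 0.05, and a median difference of 0.00. For all genes the share called was 0.155%. The Myc level of hCD2-positive cells exceeded that of hCD2-negative cells by 0.43, with a 95% interval of -0.06 to 0.92. The Nop56 difference was 0 with an interval of -0.62 to 0.62, and that of Ncl 0.00 with an interval of -0.39 to 0.40. For Ncl, Nop2 (-0.44 to 0.49) and Rrp1b (-0.44 to 0.57) the interval does not reach a difference between fractions as large as the gene's own fall against untreated cells. Quantile normalization gave 0 calls as well, with 3 genes at an unadjusted p under 0.05, for which the share of all genes is not given. All differences except those of Myc, Wdr12 and Nip7 were then negative. Relative to the median of all genes, the set's median was -0.11 in that scaling and -0.03 on the deposited values. The replicate block, which pairs same-numbered arrays, called none of the set. With estimated array weights 6 of the genes were called higher in hCD2-positive cells, about the share of all genes called in that fit.

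Knockout cells showed the same sign without a call on the deposited values. Each of the 31 differences between TGFB-treated and untreated Marilyn.Foxp3-/- cells was negative, with a median of -0.52 against -0.03 over all genes. None of the 31 passed the test in 3 arrays against 3 (limma, 0 lower against 1.85% of all genes), and 5 had an unadjusted p under 0.05. The share of all genes at that unadjusted p is not given, so the 5 cannot be set against it. In 14 of the 31 every TGFB array lay below every untreated array, against 11.1% of all genes. After quantile normalization 3 genes fell, Ddx21 (-0.64), Ncl (-0.52) and Nop2 (-0.57), against 5.07% of all genes, and the set's median was -0.38.

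The per-gene values in knockout cells show where the spread lay. Ncl read 11.36, 11.53 and 11.96 in untreated and 10.91, 11.14 and 10.84 in TGFB-treated knockout cells, which did not overlap (log2 -0.65 ± 0.24, adjusted p = 0.229). Nop56 read 10.83, 10.37 and 11.02 against 9.85, 10.14 and 9.92, also without overlap (log2 -0.77 ± 0.38, adjusted p = 0.477). Ddx21 read 9.27, 9.19 and 9.76 against 8.51, 8.78 and 8.6 (log2 -0.78 ± 0.33, adjusted p = 0.335). Myc overlapped, with 10.85, 10.2 and 11.39 against 9.92, 10.46 and 10.35 (log2 -0.57 ± 0.30, adjusted p = 0.536). Untreated knockout replicate 3 was the highest array of the set in all 4 of these genes, its median deviation over the 31 genes was 0.43, and its interquartile range of 2.94 was the widest of the knockout arrays (the others had 2.33 to 2.6). The lowest array of the set, TGFB replicate 1 at -0.66, had the narrowest range, 2.33. Without untreated replicate 3 the set's median difference was -0.30 with 28 negative values. Pes1 read 8.18, 8 and 8.18 against 8.19, 8 and 8.04, a difference of -0.04 that did not pass.

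The TGFB responses of the genotypes were also set against each other. None of the 31 genes passed the test of a difference in response between hCD2-positive and knockout cells or between hCD2-negative and knockout cells (limma, 0 genes at an unadjusted p under 0.05 in each), and of all genes 0.00% and 0.00673% were called. The set's median difference in response was -0.20 and -0.21 on the deposited values and 0.02 and 0.16 after quantile normalization. For Myc the difference in response was -0.36 (95% interval -1.16 to 0.44) for hCD2-positive and -0.79 (-1.59 to 0.02) for hCD2-negative cells. These intervals are wide, and a p that misses the threshold does not show that the responses were alike.

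Levels in the 5 groups are set side by side after quantile normalization, only as a description. That step equalizes the distributions of the arrays and not the offsets of single genes. Untreated reporter and knockout cells still averaged 8.75 and 7.69 for Nop58, and 8.13 and 8.8 for Bop1. All knockout arrays were of study 2. The source of these offsets was not tested, and an order across genotypes is not a tested difference. Myc then averaged 10.3 ± 0.38 (SD, n = 5) in untreated reporter and 10.33 ± 0.32 (n = 3) in untreated knockout cells, followed by 9.96 ± 0.11 (n = 3) in TGFB-treated knockout, 9.71 ± 0.31 (n = 5) in hCD2-positive and 9.43 ± 0.26 (n = 5) in hCD2-negative cells. The ranges of mean ± SD of neighbours in this order overlapped. Nop2 averaged 8.24 ± 0.23 and 8.21 ± 0.27 in untreated reporter and knockout cells, and 7.72 ± 0.23, 7.83 ± 0.22 and 7.64 ± 0.08 in hCD2-positive, hCD2-negative and knockout TGFB-treated cells. Ncl averaged 11.8 ± 0.43 in untreated reporter and 11.17 ± 0.12 in untreated knockout cells, and its untreated reporter arrays of study 2 were also lower than those of study 1.

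Other genes of ribosome assembly were counted from lists that were chosen, like the 31 genes, with earlier results of these data known. Of 37 further small-subunit genes 6 (16.2%) fell in hCD2-positive and 10 (27.0%) in hCD2-negative cells, where 9.66% and 16.9% of all genes did. Of 36 further large-subunit genes 5 (13.9%) and 10 (27.8%) fell, of 9 further RNA polymerase I genes 0 and 2, and of 7 further guide-particle assembly genes 1 and 2. On the deposited values 0 of these genes rose in either fraction, and 0 were called in knockout cells or between the fractions. After quantile normalization 5 small-subunit and 5 large-subunit genes fell in hCD2-positive cells and 2 and 5 in hCD2-negative cells, against backgrounds of 9.36% and 11.6%. Some genes of these lists then rose, with 3 RNA polymerase I genes (Ubtf, Ttf1 and Baz2a) and 3 large-subunit genes (Mdn1, Ddx51 and Efl1) in hCD2-negative cells, named here after their values were seen. In hCD2-positive cells Baz2a and Ddx51 rose, and in hCD2-negative cells also the small-subunit gene Rrp7a. Over all genes, higher calls were then about as frequent as lower ones in both fractions. In knockout cells 5 of the large-subunit genes fell after quantile normalization (13.9%, against 5.07% of all genes), among them Mak16 (-0.86) and Rsl1d1 (-0.67). The list medians on the deposited values ran from -0.52 to -0.22 in hCD2-positive and from -0.68 to -0.39 in hCD2-negative cells. The large-subunit factor Mak16 fell by 1.14 and 1.17 (adjusted p = 0.00944 and 0.0059), and the processome protein Utp11 by 1.03 and 1.31 (adjusted p = 0.0176 and 0.00247). Both genes kept these calls after quantile normalization. Without the narrow arrays both lost the hCD2-negative call, on the deposited values and after quantile normalization. The hCD2-positive call of Utp11 held in 7 of 10 fits that left out 1 array.

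Among 16 measured partners of the Myc network, 2 fell (12.5%, against 9.66% of all genes) and 1 rose in hCD2-positive cells, and 4 fell (25%, against 16.9%) in hCD2-negative cells. After quantile normalization 3 fell (18.8%, against 9.36% of all genes) and 3 rose in hCD2-positive cells. In hCD2-negative cells 5 then fell (31.2%, against 11.6%) and 3 rose. Over all genes about as many rose as fell in that scaling. Mxd1 and Mxi1 both pair with Max in place of Myc and repress E-box genes. Mxi1 fell, by 0.77 (SE 0.21, adjusted p = 0.0194) in hCD2-positive and 1.05 (SE 0.21, adjusted p = 0.00159) in hCD2-negative cells, and was called after quantile normalization too (-0.45 and -0.60). The hCD2-positive call was lost when any of 3 single arrays was left out, and both were lost without the narrow arrays. The other gene that fell in hCD2-positive cells was Mlx (-0.80, adjusted p = 0.0294). The Mlx call held after quantile normalization (-0.46) but in only 5 of 10 fits that left out 1 array. It was also lost without study number and with the compared groups alone. The gene that rose was Mxd1. Mxd1 read 8.37, 8.8, 9.13, 9.01 and 9.24 in untreated, 10.18, 10.42, 9.39, 10.35 and 9.82 in hCD2-positive and 9.04, 8.78, 8.42, 8.89 and 9.14 in hCD2-negative cells. Every hCD2-positive array lay above every array of the other reporter groups. Mxd1 rose by 1.12 (SE 0.22, adjusted p = 0.00229) against untreated cells, a call that held with each single array left out and after quantile normalization (1.47). It was 1.18 higher than in hCD2-negative cells (SE 0.22, adjusted p = 0.0295), a call lost when any of 7 of the 10 single arrays was left out. In knockout cells TGFB changed it by 0.05 (95% interval -0.55 to 0.65), and the test of that response against the hCD2-positive response did not pass (1.07, adjusted p = 0.998).

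Pim1, a kinase that is known to stabilise Myc, also differed between the fractions. It read 10.87, 10.97, 10.98, 11.6 and 11.3 in untreated, 11.81, 11.36, 9.78, 11 and 10.64 in hCD2-positive and 9.42, 9.39, 8.44, 8.36 and 8.72 in hCD2-negative cells. All hCD2-negative arrays lay below the other reporter arrays. Its difference between hCD2-positive and untreated cells was -0.23 (adjusted p = 0.684). Pim1 fell by 2.28 in hCD2-negative cells (SE 0.31, adjusted p = 5.6e-05) and was 2.05 higher in the hCD2-positive than in the hCD2-negative fraction (SE 0.31, adjusted p = 0.0051). Its difference in knockout cells was -1.46 (adjusted p = 0.0641), called after quantile normalization (-1.27).

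Of 21 measured textbook Myc targets outside the nucleolus, 8 fell (38.1%, against 9.66% of all genes) and 0 rose in hCD2-positive cells, 13 fell (61.9%, against 16.9%) in hCD2-negative cells and 1 fell (4.76%, against 1.85%) in knockout cells. After quantile normalization 9 fell in hCD2-positive (42.9%, against 9.36%) and 10 in hCD2-negative cells (47.6%, against 11.6%). In knockout cells 6 then fell (28.6%, against 5.07%), including Slc3a2 (-1.02) and Mthfd2 (-0.70). Tert rose in hCD2-negative and in knockout cells in that scaling. The gene called in knockout cells on the deposited values was Slc7a5, the light chain of a large amino acid transporter. It read 10.5, 10.25, 10.7, 11.49 and 9.42 in untreated reporter cells, 8.46, 7.76, 7.22, 8.82 and 8.72 in hCD2-positive and 7.5, 8.02, 7.46, 8.21 and 8.6 in hCD2-negative cells. In knockout cells it read 11.24, 10.86 and 11.94 before and 9.3, 9.51 and 8.93 with TGFB. The groups did not overlap in any of these comparisons with untreated cells, and the log2 differences were -2.28 (adjusted p = 0.000164), -2.51 (3.63e-05) and -2.10 (0.00906), each larger than that of any of the 31 genes. The knockout call held in 4 of 6 fits that left out 1 array.

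Within the studies the set's median stayed negative and 0 genes were called. Of the 10 calls in hCD2-positive cells 3 held with each single array left out (Myc, Ncl and Rrp1b), and of the 14 in hCD2-negative cells 5 did (Myc, Ncl, Nob1, Nop2 and Rrp1b). In study 1 alone (3 arrays a group) the set's median was -0.78 in hCD2-positive and -0.65 in hCD2-negative cells, with 19 and 15 genes at an unadjusted p under 0.05 (limma). In study 2 alone (2 reporter arrays a group) the medians were -0.49 and -0.56, with 4 and 8 such genes. Of all single arrays, leaving out untreated replicate 5 raised the lower calls to 19 and 20, and leaving out untreated replicate 1, 3 or 4 brought them to 4 in hCD2-positive and to 7, 7 and 6 in hCD2-negative cells. Leaving out hCD2-positive replicate 3 gave 5 calls and a median of -0.48, and replicate 4 gave 6. Leaving out hCD2-negative replicate 1, 3 or 4 gave 6, 5 and 5 calls, and replicate 2 gave 20. For these counts without 1 array, and for the unadjusted counts of each study, the share of all genes is not given. A change in the set and a change over all genes cannot be told apart in them.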

How the data were processed

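Total RNA of frozen pellets was hybridised to Affymetrix mouse exon arrays, 1 per sample. The deposited table holds log2 values, which the authors summarised with RMA in Affymetrix Expression Console 1.2 on mm8, per the submitters' processing notes. None of its columns belonged to other samples (0). Arrays give no read depth, and their number limits the precision. Clusters were named from the platform annotation: 14996 of 23332 carried 1 symbol, 1019 several and 7317 none. The highest-mean cluster was kept for 135 genes with more than 1. Nop56 is also named in a cluster with several symbols, which was not used. No array coordinates were used. Sequences are RefSeq's, on GRCm38.p6.

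Differences were tested 2-sided with limma 3.58.1 in R 4.3.3 on the deposited log2 values of all 21 arrays, with group means and study number in the model and Benjamini-Hochberg adjustment over 14860 genes, and were called at an adjusted p under 0.05. Values with ± are standard errors of log2 fold changes unless given as SD. Every gene of the set could be named. Of each other list, up to 3 called genes per comparison were to be named, those with the largest absolute log2 fold changes. The members and lists were chosen with earlier results of these data known. On simulated data with known changes, the fit was tested first. Alternatives were other scalings, a model without study, a replicate block, no dim genes, another variance prior, array weights, all clusters, the lowest-mean cluster, each study, the compared groups alone, and leaving out narrow reporter arrays (interquartile range under 2.5; knockout arrays were not filtered on it) or single arrays. Combining quantile normalization with the narrow-array filter or the block was added after seeing the data. Same-numbered reporter arrays correlated at 0.098 to 0.8 in their deviations from group means (14 of 15 pairs above 0.1). Reporter arrays of different numbers, some across studies, correlated at -0.728 to 0.638 (20 of 60). Same-numbered TGFB fractions stood at 0.656, 0.785, 0.736 and 0.8 in replicates 2 to 5 and at 0.098 in replicate 1. Same-numbered knockout arrays stood at -0.182 to 0.58 (2 of 3), the others at -0.675 to 0.461 (2 of 6). The labels name no shared animal or culture, and the main fit did not pair samples. The replicate block is the fit that pairs them.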

Additional observations from a re-analysis of the deposited data

Results flagged for a closer look

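In 7 of 93 gene and group combinations of 5 arrays, the highest or the lowest array stood far from the other 4, and chance alone marks about 1 in 20. Untreated replicate 5 was low in Utp20 (6.38 against 7.42 to 7.81), Heatr1 (7.42 against 8.11 to 8.32) and Ddx21 (8.6 against 9.4 to 9.55). Untreated replicate 4 was high in Imp4 (9.33 against 8.02 to 8.17). The narrow array hCD2-positive replicate 3 was low in Polr1a (6.61 against 7.68 to 8.02), Mybbp1a (7 against 8.22 to 8.68) and Noc4l (6.94 against 7.88 to 8.19).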

How the results depend on the processing

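The lower calls of 10 genes in hCD2-positive and 14 in hCD2-negative cells depended on the fit. They were 4 and 9 without study number (7.07% and 12.1% of all genes called lower), 0 and 0 in each study alone (1.12% to 3.42%), 5 and 1 without the narrow reporter arrays, and 6 and 1 without them after quantile normalization (8.45% and 6.31%). Quantile normalization gave 6 in hCD2-negative and 3 in knockout cells. Leaving out the dimmest genes gave 16 in hCD2-positive cells (14.3%), testing all clusters 6 (6.99%), and the compared groups alone 4 (6.56%). Array weights gave 28 in hCD2-negative (32.7%) and 2 in knockout cells (3.97%), 6 higher between the fractions (20.7% of all genes) and 2 for the hCD2-negative response against the knockout response (20.3%). The cause was not tested. Leaving out each array in turn gave 4 to 19 calls in hCD2-positive and 5 to 20 in hCD2-negative cells, without the share of all genes. The replicate block gave 9 and 14 calls, against 11% and 19.9%, with 7 of the 10 and all 14 shared with the fit without it. With quantile normalization, the replicate block gave 7 calls in hCD2-negative (12.6%) and 6 in knockout cells (5.73%). No member that was called under the deposited scaling or an alternative had the opposite sign in the other (0 cases). The set's median was negative under every alternative in the 3 comparisons with untreated cells. Arrays give no depth, and levels near background were not assessed.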
